A study of Mus musculus with 1104 samples.

Results

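The genes described here are 7 genes by which the small intestine digests dietary sugars, takes them up and starts to break them down, namely Sis, Lct, Mgam, Treh, Slc5a1, Slc2a5 and Khk. They were chosen by symbol, as 7 of the 20646 rows of a table of read counts per gene, and all 7 passed the filter on low counts in small intestine, where 14345 genes passed. The samples were poly(A) RNA-seq libraries of 13 organs of male wild type C57BL/6 mice. In small intestine 6 mice had been on a high-fat diet with 60 kcal% fat for each of 1 day, 3 days, 1 week, 10 days, 2, 3, 4, 5, 6, 7, 8, 10 and 12 weeks, and 6 mice were dissected at 0 days, the start of the diet at 8 weeks of age. The other organs had the same time points and numbers of mice, and epididymal fat also 16 and 20 weeks. Every later time point was therefore older than the 0-day mice by its time on the diet, and mice of the same ages kept off the diet are not analysed here, so diet, age and day of dissection cannot be told apart. The labels give small intestine as the tissue without naming a segment, and whole-tissue RNA cannot tell fewer cells of a type from less RNA per cell.

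Starch and sucrose reach the small intestine as short sugar chains and disaccharides, and enzymes anchored in the brush border, the apical membrane of enterocytes, cut them to monosaccharides. Sucrase-isomaltase (Sis) and maltase-glucoamylase (Mgam) cut sucrose, maltose and other starch fragments, lactase (Lct) cuts milk sugar, and trehalase (Treh) cuts trehalose. The sodium-coupled carrier SGLT1 (Slc5a1) then takes up glucose and galactose, GLUT5 (Slc2a5) takes up fructose, and ketohexokinase (Khk) phosphorylates fructose inside the cell. In GRCm38 Sis lies on chromosome 3 at 72888557 to 72967863 on the minus strand, and Lct on chromosome 1 at 128284756 to 128328318 on the minus strand. The other genes lie on the plus strand: Mgam on chromosome 6 at 40628831 to 40769123, Treh on chromosome 9 at 44673233 to 44686305, Slc5a1 on chromosome 5 at 33104219 to 33162870, Slc2a5 on chromosome 4 at 150119283 to 150144169 and Khk on chromosome 5 at 30921431 to 30931248. Treh overlaps Phldb1 on the other strand, and Slc5a1 overlaps the processed pseudogene Gm15936 on its own strand and 5033423K11Rik on the other, so some of their reads could belong to those neighbours. The counts are per gene and cannot separate the protein forms of Khk that arise by alternative splicing.

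The promoters shown are those of the 3 genes that were lower at 12 weeks and of the fructose kinase Khk, which was higher. The group means of the 3 and of Khk differed from 0 days in opposite directions. Each runs from 250 bases before to 50 bases after the RefSeq start (GRCm38.p6), in the direction of the gene, at chr5:33103969-33104268 on the plus strand for Slc5a1, chr6:40628581-40628880 on the plus strand for Mgam, chr3:72967814-72968113 on the minus strand for Sis and chr5:30921309-30921608 on the plus strand for Khk. Capitals mark matches on either strand to 5 short motifs. For intestinal Cdx factors the letters searched were TTTAT. For GATA factors the search used AGATAA and for the E box, which basic helix-loop-helix factors bind, it used CACGTG. For HNF4 the letters were CAAAGT and for the TATA box they were TATAAA.
Slc5a1: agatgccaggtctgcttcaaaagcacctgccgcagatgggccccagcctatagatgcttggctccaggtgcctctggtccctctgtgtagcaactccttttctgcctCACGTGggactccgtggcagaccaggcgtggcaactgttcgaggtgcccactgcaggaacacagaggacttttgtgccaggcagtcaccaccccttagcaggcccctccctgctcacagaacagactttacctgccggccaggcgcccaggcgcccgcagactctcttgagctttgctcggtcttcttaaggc
Mgam: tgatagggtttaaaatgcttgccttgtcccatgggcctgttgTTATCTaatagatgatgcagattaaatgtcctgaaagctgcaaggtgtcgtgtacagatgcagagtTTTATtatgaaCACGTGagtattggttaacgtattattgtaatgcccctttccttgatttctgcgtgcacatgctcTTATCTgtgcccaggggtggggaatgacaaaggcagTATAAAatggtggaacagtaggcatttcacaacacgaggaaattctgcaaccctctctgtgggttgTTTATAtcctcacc
Sis: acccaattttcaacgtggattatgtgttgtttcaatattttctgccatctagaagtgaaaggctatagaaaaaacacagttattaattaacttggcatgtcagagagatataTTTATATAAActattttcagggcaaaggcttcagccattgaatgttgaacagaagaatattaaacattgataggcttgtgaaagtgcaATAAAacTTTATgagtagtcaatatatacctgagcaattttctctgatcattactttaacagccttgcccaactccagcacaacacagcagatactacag
Khk: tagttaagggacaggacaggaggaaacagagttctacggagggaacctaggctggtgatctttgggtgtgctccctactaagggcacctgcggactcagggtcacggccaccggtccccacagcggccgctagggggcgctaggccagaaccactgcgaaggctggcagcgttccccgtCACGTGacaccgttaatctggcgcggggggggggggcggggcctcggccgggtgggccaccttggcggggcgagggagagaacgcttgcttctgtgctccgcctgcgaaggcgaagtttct
The E box letters stood in 3 of these 4 windows, at position 108 of the 300 in Slc5a1, 120 in Mgam and 180 in Khk. The windows not printed, of Lct, Treh and Slc2a5, lacked them, and Treh was also higher at 12 weeks. Of all 32851 RefSeq promoters of the same length, 7.15% held the E box letters. The Cdx letters read on the other strand lie within those of the TATA box, so matches to these motifs can overlap. The Sis window had 4 matches to the Cdx motif and 2 to the TATA box, which 40.0% and 13.6% of all promoters hold in that order. The Mgam window also had 3 matches to the Cdx motif, 2 to the GATA motif (11.2% of all promoters) and 2 to the TATA box. Of the windows not printed, Lct had 2 matches each to the Cdx and GATA motifs, Treh 2 to the HNF4 motif (14.4% of all promoters), and Slc2a5 had none of the 5. GC content was 60.3% in the Slc5a1 window, 43.0% in Mgam, 34.0% in Sis and 65.7% in Khk, with a median of 52.7% over all promoters. A match is a description of letters, and no binding was measured.

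The 84 small intestine libraries held 10532069 to 27036098 counts, with a median of 12472562, and the 7 genes together took 1.41% to 2.23% of them, with a median of 1.80%. Per kilobase of exon, over all libraries, Slc5a1 had the highest level at 797 ± 132 counts scaled to library size (CPM) per kb (SD, n = 84), ahead of Sis at 768 ± 108 and Mgam at 619 ± 95.7. Lct followed at 382 ± 42.8, Treh at 255 ± 27.6, Khk at 200.2 ± 17.8 and Slc2a5 at 66.4 ± 6.93 CPM per kb. Over all libraries Slc5a1 and Sis were less than 1 SD apart, and each of the others was more than 1 SD from the next. At 0 days Slc5a1 had 1095 ± 116 CPM per kb and Sis 920 ± 97.0 (SD, n = 6), more than 1 SD apart, and Slc5a1 had the higher mean at 12 of the 14 time points, the exceptions being 1 day (806 against 904) and 6 weeks (682 against 726). All levels below are CPM without division by length, scaled by TMM, and are compared only within a gene. Changes are log2 fold changes ± standard error from edgeR's quasi-likelihood test over 0 days, with 6 mice per time point, and a change is called where the p-value adjusted over all 14345 genes is under 0.05. All comparisons with 0 days share the same 6 mice at 0 days, so counts of times called are not independent repeats.

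**Figure D1:**
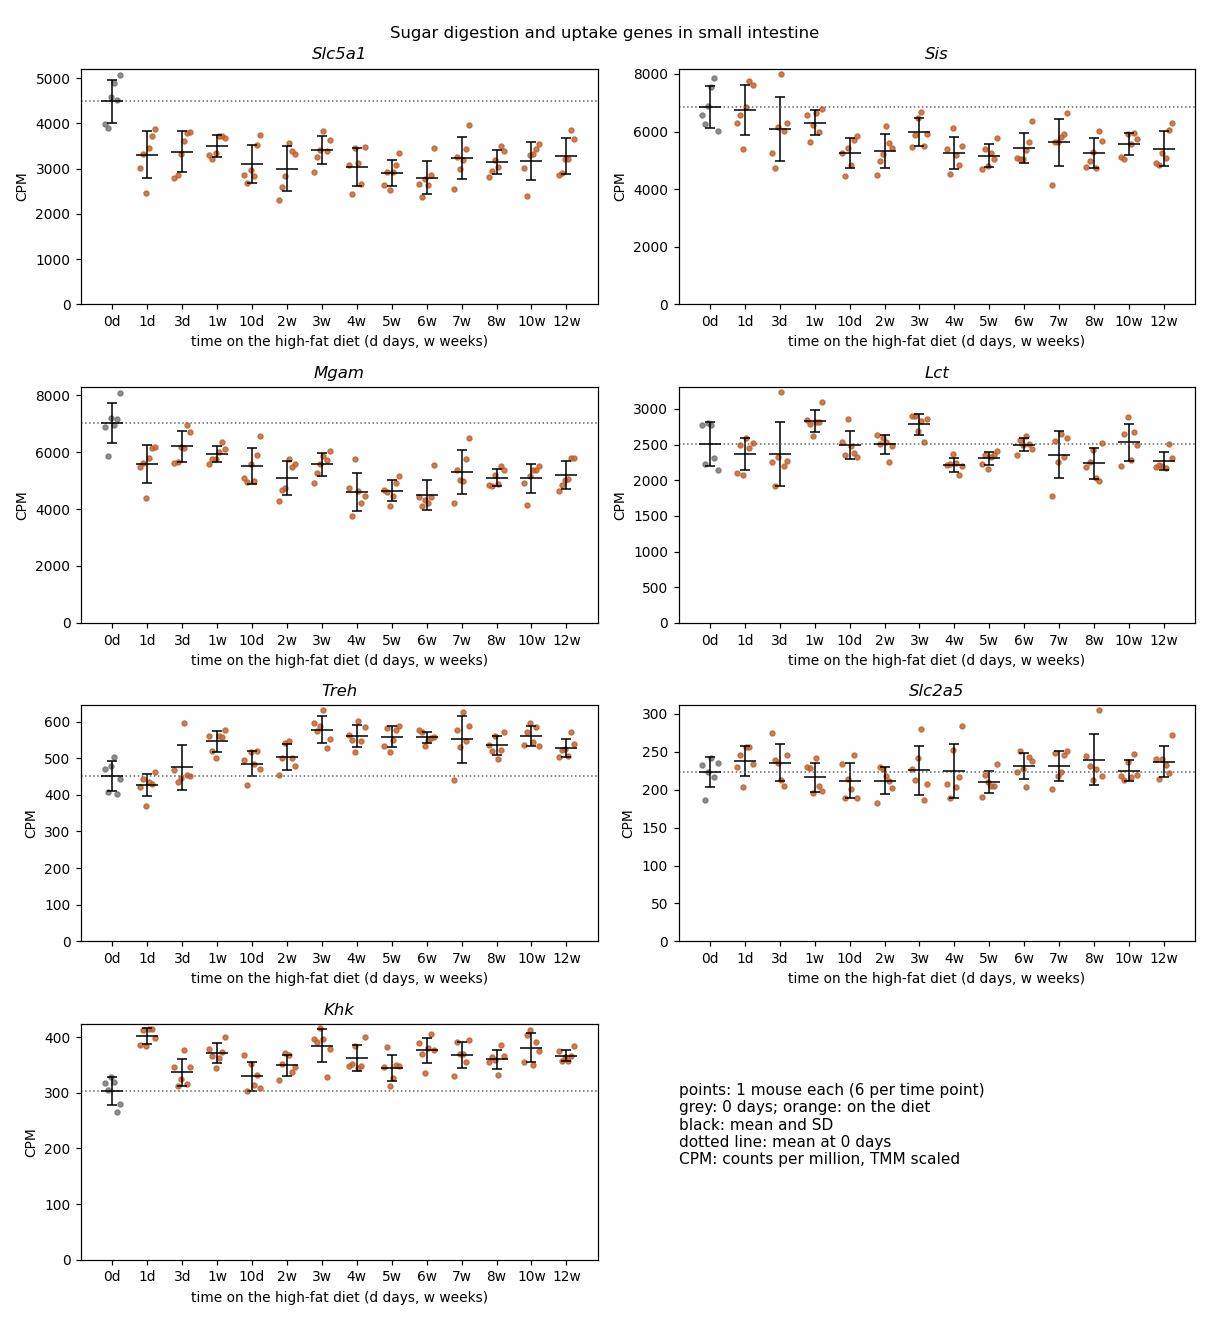
Level of each gene in small intestine (CPM, vertical axes from 0) against time on the high-fat diet, with 1 point per mouse, bars for the mean and SD of 6 mice, and a dotted line at the 0-day mean. Slc5a1 and Mgam sit below that line from 1 day on, Khk above it, and Slc2a5 close to it.

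After 1 day on the diet Khk was higher than at 0 days, and Slc5a1 and Mgam were lower. Khk had 384, 406 and 415 CPM (lowest, median and highest) in mice at 1 day and 266, 311 and 328 CPM in mice at 0 days. All 6 mice at 1 day stood above all 6 at 0 days, and the log2 fold change was 0.41 ± 0.053 (adjusted p = 1.9e-09). Slc5a1 had 2453, 3394 and 3883 CPM at 1 day and 3890, 4551 and 5075 CPM at 0 days. The groups did not overlap, though the highest mouse at 1 day lay just below the lowest at 0 days, and Slc5a1 fell by 0.44 ± 0.10 on the log2 scale (adjusted p = 0.00053). Mgam had 4373, 5703 and 6173 CPM at 1 day and 5867, 7070 and 8076 CPM at 0 days. Of the 6 mice at 1 day 4 stood below all 0-day mice, and Mgam fell by 0.33 ± 0.084 (adjusted p = 0.0019). In this comparison 3 of the 7 genes were called, 1 higher and 2 lower, against 23.5% of all genes tested.

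The other 4 genes were not called at 1 day. Sis differed from 0 days by a log2 fold change of -0.024 (95% interval -0.20 to 0.15), with 5403, 6710 and 7747 CPM at 1 day and 6019, 6733 and 7875 CPM at 0 days. The differences of Lct (-0.078, interval -0.23 to 0.069), Treh (-0.080, -0.20 to 0.037) and Slc2a5 (0.093, -0.068 to 0.25) were of like size, and in all 4 genes the mice at 1 day overlapped those at 0 days. Changes within these intervals are not excluded.

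Slc5a1, the glucose and galactose carrier, was lower at 13 of the 13 later time points, and no other gene of the 7 was called at every one. Its later means were between 2798 CPM, at 6 weeks, and 3499 CPM, against 4494 ± 475 CPM at 0 days (SD, n = 6). At 6 weeks it had 2374, 2719 and 3466 CPM, and the log2 fold change was -0.68 ± 0.10 (adjusted p = 8.5e-08). At 12 weeks it had 2860, 3212 and 3858 CPM, and fell by 0.45 ± 0.10 (adjusted p = 0.00021). All 6 mice were below all 0-day mice at each later time but 7 weeks, where 5 of 6 were.

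Mgam, the glucoamylase, was lower at 12 of 13 times. The exception was 3 days, with 5634, 6164 and 6966 CPM and a log2 fold change of -0.18 (adjusted p = 0.12). The lowest mean was 4501 ± 527 CPM at 6 weeks, against 7025 ± 711 CPM at 0 days, and there Mgam fell by 0.64 ± 0.085 (adjusted p = 2.3e-09). At 12 weeks Mgam had 4652, 5045 and 5806 CPM in 6 mice, all below the 0-day mice, and fell by 0.44 ± 0.084 (adjusted p = 1.9e-05).

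Sis, the sucrase, was lower at 9 of 13 times, namely at 10 days, 2 weeks and each time from 4 weeks on. Its lowest mean was 5165 ± 406 CPM at 5 weeks, against 6865 ± 724 CPM at 0 days, a fall of 0.41 ± 0.090 (adjusted p = 0.00012). At 12 weeks it had 4842, 5174 and 6298 CPM and fell by 0.35 ± 0.090 (adjusted p = 0.0012), and 4 of the 6 mice stood below all 0-day mice. At 3 weeks the log2 fold change was -0.20 (adjusted p = 0.079).

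Khk, the fructose kinase, was higher at 12 of 13 times, and its highest mean was that of the first day. The mean was 303 ± 24.8 CPM at 0 days, 402 ± 14.2 at 1 day, 337 ± 24.4 at 3 days, 371 ± 18.3 at 1 week and 329.5 ± 26.0 at 10 days, the time that was not called (log2 fold change 0.12, adjusted p = 0.057). The call at 3 days (0.16 ± 0.053, adjusted p = 0.024) was lost, at adjusted p = 0.12 when 3 days and 0 days were fitted alone and at adjusted p = 0.070 when the library least correlated with the others was left out of each time point. At 12 weeks Khk had 357, 365 and 383 CPM in mice that all stood above the 0-day mice, a rise of 0.28 ± 0.053 (adjusted p = 1.3e-05).

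Treh, the trehalase, was higher at 10 of 13 times, the exceptions being 1 day, 3 days and 10 days. The mean was 451 ± 40.3 CPM at 0 days, 546 ± 29.4 at 1 week and highest at 3 weeks, at 578 ± 35.9 CPM, a rise of 0.36 ± 0.060 (adjusted p = 1.1e-06). At 12 weeks Treh had 502, 524 and 571 CPM, with the lowest of these mice just above the highest 0-day mouse, and rose by 0.23 ± 0.060 (adjusted p = 0.0015). With the level of pancreatic acinar genes as a covariate the difference at 12 weeks was 0.11 (adjusted p = 0.25), and with 2 weeks and 0 days fitted alone the difference at 2 weeks was 0.15 (adjusted p = 0.064).

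Lct, the lactase, was called at 0 of 13 times by edgeR, with log2 fold changes from -0.18 to 0.18. The unadjusted p was under 0.05 at 4 of these times, and DESeq2 called 1, as lower. Its mean was 2504 ± 309 CPM at 0 days, 2827 ± 152 CPM at 1 week, the highest, and 2217 ± 98.2 CPM at 4 weeks, the lowest. At 12 weeks Lct had 2171, 2207 and 2502 CPM, a log2 fold change of -0.14 (adjusted p = 0.12). Without the sixth 0-day mouse, which had the lowest Lct of its group, that difference was -0.19 (adjusted p = 0.040). With the level of pancreatic acinar genes as a covariate Lct was lower at 2 of 13 times, and the difference at 12 weeks was -0.25 (adjusted p = 0.035).

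Slc2a5, the fructose carrier, was also called at 0 of 13 times by edgeR and by DESeq2, and at none of them was the unadjusted p under 0.05. Its later means were between 210.6 and 239.8 CPM, against 223 ± 19.9 CPM at 0 days. The log2 fold changes ran from -0.081 to 0.11, and at 12 weeks the 95% interval was -0.071 to 0.25. Fructose uptake and fructose phosphorylation genes thus differed in their calls, with Khk called at 12 times and Slc2a5 at none, and the difference between them was not tested.

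**Figure D2:**
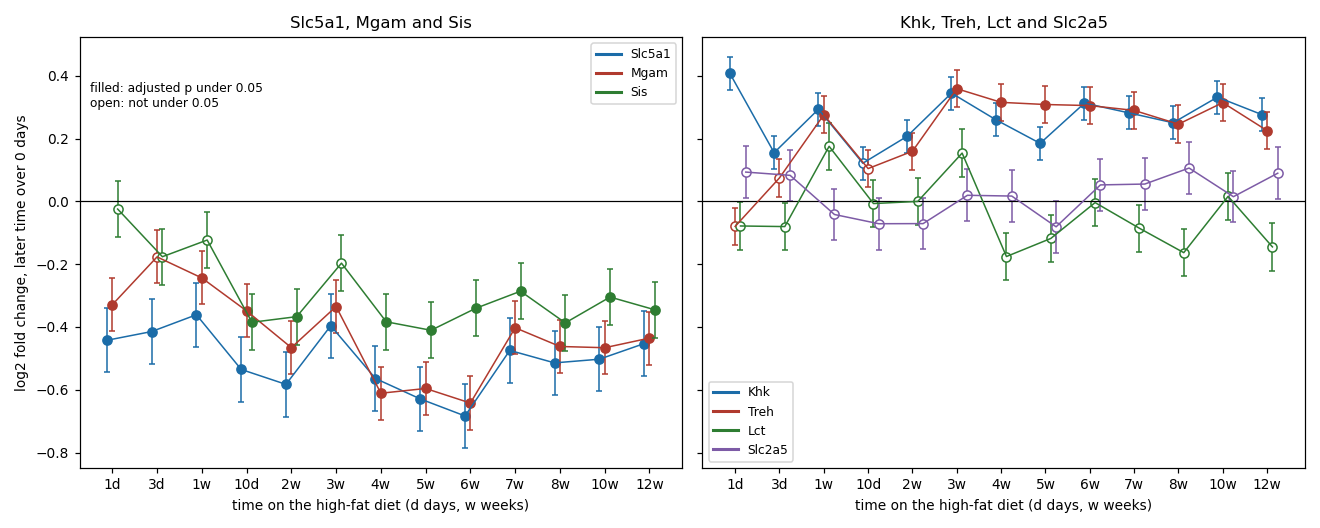
Log2 fold change of each gene in small intestine over 0 days (vertical axis, bars for the standard error) at the 13 later time points, with filled points where the adjusted p was under 0.05. Slc5a1, Mgam and Sis lie below 0, Khk lies above 0 from 1 day and Treh from 3 days, and Lct and Slc2a5 have open points throughout.

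Of the 7 genes, 2 were called at 3 days (22.6% of all genes), 4 at 1 week (27.0%), 3 at 10 days (39.6%), 5 at 2 weeks (38.2%) and 4 at 3 weeks (35%). From 4 weeks on 5 were called at each time, against 40.4% of all genes at 4 weeks, 42% at 5, 37.3% at 6, 41.9% at 7, 40.4% at 8, 36.1% at 10 and 38.9% at 12 weeks. These 5 were Slc5a1, Mgam and Sis, lower, and Khk and Treh, higher. In the test of any difference between time points 6 of the 7 were called, all but Slc2a5 (adjusted p = 0.30), against 68.6% of all genes. The counts of 2 of 7 at 3 days and 3 of 7 at 10 days are close to the share of all genes. None of the counts was tested against its share, and with 7 genes each gene weighs heavily in them.

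Between 12 weeks and 1 day 2 of the 7 genes were called, which is close to the share of 27.0% over all genes. Treh was higher at 12 weeks than at 1 day (0.31 ± 0.060, adjusted p = 4.5e-05), with 502, 524 and 571 CPM at 12 weeks and 371, 432 and 462 CPM at 1 day. Sis was lower (-0.32 ± 0.090, adjusted p = 0.0042). Slc5a1 differed by -0.011 (95% interval -0.21 to 0.19) and Mgam by -0.11 (-0.27 to 0.059). For Khk the difference was -0.13 ± 0.052 (adjusted p = 0.053), and the adjusted p was between 0.029 and 0.049 under 8 alternatives, which were RLE scaling, DESeq2, the 2 time points alone, removal of the library least like its group at each time point, the region, pancreas and clock covariates, and removal of pancreatic enzyme genes.

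Several marker groups moved with these genes. For these and the lists that follow, 12.1% of all genes tested were higher and 11.4% lower at 1 day. At 12 weeks the shares were 19.8% and 19.1%. Of 12 genes of the enterocyte cytoskeleton and cell adhesion, 1 was higher and 5 were lower at 1 day, and 1 was higher and 8 were lower at 12 weeks. Espn, an actin bundler of microvilli, was the higher one (0.16 and 0.13), and Ezr, which links actin to the membrane, fell by 0.49 and 0.53 and Cdh17, an intestinal cadherin, fell by 0.34 at 12 weeks. Their summed level was 19501 to 21755 CPM at 0 days, 16190 to 20767 CPM at 1 day and 17965 to 19240 CPM at 12 weeks. With their mean log2 level as a covariate Slc5a1 was called at 0 of 13 times by edgeR (unadjusted p under 0.05 at 0 of them), Mgam at 2 (4 weeks and 6 weeks, lower) and Sis at 1 (1 day, higher), while Khk was higher at 13, Treh at 12, Lct at 7 and Slc2a5 at 1. In that fit the 1-day differences were -0.15 for Slc5a1 (adjusted p = 0.26), -0.11 for Mgam (0.35), 0.22 for Sis (0.040) and 0.50 for Khk (7.2e-12). At 12 weeks they were -0.12 for Slc5a1 (0.35), -0.19 for Mgam (0.066), -0.071 for Sis (0.56), 0.38 for Khk (9.2e-08) and 0.40 for Treh (8.6e-08).

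Ileal genes were lower: 3 of 6 at 1 day and 6 of 6 at 12 weeks, with Fabp6, the ileal bile acid binding protein, lower by 0.51 and 0.88 and summed levels of 1370 to 1727 CPM at 0 days, 1027 to 1184 CPM at 1 day and 820 to 1048 CPM at 12 weeks. Of 5 genes of the proximal small intestine, 0 were called at 1 day by edgeR or DESeq2 (unadjusted p under 0.05 for 1). At 12 weeks 1, Gata4, was higher, close to the share of 19.8% over all genes. With the difference between the proximal and ileal lists as a covariate no call of the 7 genes was lost. Genes of pancreatic acinar cells took 1.28% to 3.22% of the counts at 0 days, 0.484% to 6.13% at 1 day and 0.108% to 0.568% at 12 weeks, counted over 30 pancreatic enzyme genes. At 12 weeks 6 of the 6 acinar markers tested fell (median -3.56, with Pnlip, the pancreatic lipase, at -4.02), as did 4 of 5 adipocyte markers. With the acinar level as a covariate no call of the 7 genes was lost but that of Treh at 12 weeks. Clock genes, a list added after the values were seen, had 0 higher and 2 lower of 12 at 1 day and 0 higher and 5 lower at 12 weeks, and with a clock score as a covariate Sis at 4 weeks was -0.11 (adjusted p = 0.24), while the other calls remained.

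**Figure D3:**
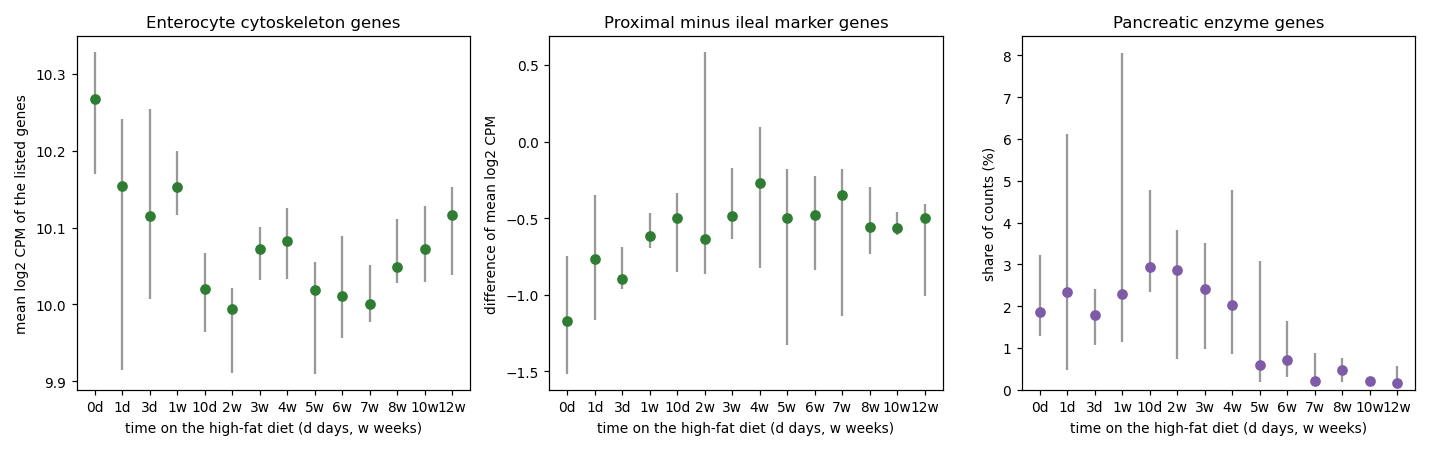
Marker levels in small intestine against time on the diet, with the median (point) and range (line) of 6 mice: mean log2 CPM of 12 enterocyte genes, difference of mean log2 CPM between proximal and ileal genes, and share of counts (%) in 30 pancreatic enzyme genes. The enterocyte level is highest at 0 days (median 10.3), and the pancreatic share has a median of 0.161% at 12 weeks and 1.86% at 0 days.

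Of the other cell types, Paneth cell genes had 3 of 6 lower at 1 day and 2 at 12 weeks, and goblet cell genes 1 of 7 higher at 1 day and 1 higher and 3 lower at 12 weeks. Crypt base stem cell genes had 3 of 6 lower at 1 day, Olfm4 among them (-0.53), and 2 higher at 12 weeks, Olfm4 again (0.24). Enteroendocrine genes had 2 of 7 higher and 2 lower at 1 day and 3 higher at 12 weeks, with Cck, a hormone released on fat intake, at 0.65 and 0.79. Smooth muscle genes had 2 of 7 lower at 1 day and 1 higher at 12 weeks, lymphocyte and plasma cell genes 1 of 6 lower and then 2 higher, and 0 of 4 tuft cell genes were called at either time by edgeR or DESeq2 (unadjusted p under 0.05 for 1 at 1 day). Of all genes tested 12.1% were higher and 11.4% lower at 1 day, and 19.8% and 19.1% at 12 weeks. Counts of 1 gene in these lists are close to those shares. The part of these cell types in the results was not tested.

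Genes of the next steps of sugar use were mostly higher. Of 19 genes of sugar breakdown and glucose release, 11 were higher and 1 was lower both at 1 day and at 12 weeks, with median log2 fold changes of 0.27 and 0.30 against -0.0099 and 0.015 over all genes. All genes tested were higher in 12.1% and lower in 11.4% of cases at 1 day, and in 19.8% and 19.1% at 12 weeks. Pfkl, a phosphofructokinase of glycolysis, had 51.2, 59.0 and 61.3 CPM at 1 day and 31.1, 35.8 and 40.8 CPM at 0 days (lowest, median and highest), and rose by 0.69 ± 0.065 (adjusted p = 1.3e-14). At 12 weeks Pfkl rose by 1.19, and Pklr, a pyruvate kinase, by 0.64. Pck1, the cytosolic enzyme that starts glucose and glycerol synthesis from oxaloacetate, fell by 1.01 at 1 day and by 1.73 at 12 weeks. Fat cells also express Pck1, and 4 of 5 adipocyte genes fell at 12 weeks. At 1 day DESeq2 called 0 of the 5 lower and 1 higher, and by edgeR Lep, the leptin gene, rose by 2.78. Lep was at a low level, with 0, 0.31 and 1.32 CPM at 0 days and 0.58, 3.46 and 5.43 CPM at 1 day. These groups overlapped. The part of fat in the fall of Pck1 was not tested at either time.

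Among 19 other sugar transporters and their relatives, 0 were higher by edgeR or DESeq2 (unadjusted p under 0.05 for 1) and 6 were lower at 1 day, and 1 was higher and 8 were lower at 12 weeks (medians -0.20 and -0.15). Slc5a4a, a close relative of Slc5a1, had 86.7, 119 and 153 CPM at 0 days, 34.7, 57.2 and 70.3 CPM at 1 day and 31.1, 39.0 and 50.1 CPM at 12 weeks. It fell by 1.12 ± 0.14 at 1 day (adjusted p = 1.1e-09) and by 1.59 ± 0.14 at 12 weeks (adjusted p = 2.7e-15), with no overlap of the groups. Slc2a9, which carries urate, fell by 0.47 at 1 day, Slc5a12, a lactate carrier of the Slc5a1 family, fell by 1.24 at 12 weeks, and Slc2a8, a glucose carrier of internal membranes, rose by 0.31 at 12 weeks.

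Of 16 tested regulators of sugar genes, 3 were higher and 1 was lower at 1 day. These counts are near the shares of all genes, 12.1% higher and 11.4% lower. At 12 weeks 7 were higher and 1 was lower, against 19.8% and 19.1% of all genes. Mlxipl, which encodes the carbohydrate response factor ChREBP, rose by 0.17 at 1 day. Txnip, a gene known to be induced by glucose, fell by 0.37 at 1 day. At 12 weeks Cdx1, an intestinal homeobox factor, and Mlxip, a relative of Mlxipl, rose by 0.22 and 0.21, and Mlx, their binding partner, fell by 0.20.

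Other brush border genes were lower too. Of 19 peptidases and peptide or amino acid carriers of the brush border, 16 were lower at 1 day and 18 at 12 weeks, and 0 were higher at either time by edgeR or DESeq2 (0 also at an unadjusted p under 0.05), with a median of -0.53 at both. Mep1a, the meprin peptidase, fell by 0.66 and 0.99, and Dpp4, a dipeptidyl peptidase, by 0.75 and 0.85. Of 20 fat absorption genes 11 were higher and 4 lower at 1 day, and 8 higher and 5 lower at 12 weeks. Fabp1, a fatty acid binding protein, had 4229, 4571 and 5193 CPM at 1 day and 1644, 1757 and 2030 CPM at 0 days, and rose by 1.36 at 1 day and 1.08 at 12 weeks. Apoa4, an apolipoprotein of chylomicrons, rose by 1.11 at 1 day and Scarb1, a lipoprotein receptor, by 1.25 at 12 weeks, while Npc1l1, which takes up cholesterol, fell by 0.77 and 0.51 and Abcg5, which exports sterols, by 0.39 and 0.52. Of 18 tested genes of fatty acid oxidation and ketone synthesis 14 were higher and 1, Angptl4, was lower at both times, with Acadvl at 0.67 and Acadl at 0.98 at 1 day and Cyp4a10 at 2.75 at 12 weeks.

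Between mice of the same time point, Mgam and Slc5a1 varied together. After subtraction of each time point's mean from log2 CPM, Pearson's r was 0.926 and Spearman's rho 0.924 over the 84 libraries (permutation p = 1e-05 each within time points, adjusted p = 3e-05, the smallest that 100000 permutations can give, two-sided), and r was 0.928 without the 2 libraries farthest from the median. Of 21 pairs, 17 had an adjusted p under 0.05 for r. Sis followed Slc5a1 (r = 0.812, rho = 0.824, permutation p = 1e-05) and Mgam (r = 0.732), and Lct followed Treh (r = 0.768) and Khk (r = 0.620). Mgam and Khk, which changed in opposite directions over time, had r = 0.168 and rho = 0.158 within time points (permutation p = 0.161 and 0.185). The libraries share their scaling and their content of enterocytes, whose part in these relations was not tested. Levels also went with replicate number. At each time point the sixth mouse had more Slc5a1 than the first, as at 12 weeks (3656 against 2860 CPM). The same held for Mgam but at 4 weeks (4474 against 4745 CPM). The clock score was likewise higher in the sixth mouse, at 12 weeks 0.872 against -0.296. Replicate number was not removed before these correlations, and its part was not tested.

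Over all 84 libraries and 10635 genes with a mean of at least 5 CPM, the genes most like Mgam by Pearson's r of log2 CPM included Slc5a1 (0.904) and Slc26a2 (0.864). Those most like Slc5a1 were Mgam, Atp1b1 (0.903) and Cyp3a13 (0.902). Atp1b1 encodes a subunit of the sodium pump. Those of Sis were Sfxn1 (0.879), Mme (0.856) and Slc2a2 (0.848), the last of which encodes the GLUT2 carrier. Khk was most like Gpd1 (0.859), Acad11 (0.847) and Ech1 (0.844), Treh like Mtarc2 (0.836), Cyb5r3 (0.805) and 1600014C10Rik (0.768), and Lct like Cyb5b (0.797), Tmem219 (0.748) and Sord (0.747), the sorbitol dehydrogenase. The genes most like Slc2a5 had lower r and included Tkfc (0.547), the kinase that acts on the glyceraldehyde from fructose, and Slc35b1 (0.517).

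Outside the small intestine the genes split by how restricted they were. Sis passed the filter on low counts in 1 organ, the small intestine, Lct, Treh and Slc5a1 in 3 organs, Mgam in 6, Slc2a5 in 11 and Khk in 13. Sis was over 1 CPM in 5 of 1020 libraries of other organs, and in the neocortex library among these Slc5a1 was at 0 CPM. The highest was a pancreas library at 10 days with 33.2 CPM of Sis, 31.4 of Mgam and 19.0 of Slc5a1, and an inguinal fat library at 5 weeks had 13.9, 20.5 and 15.2 CPM.

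**Figure D4:**
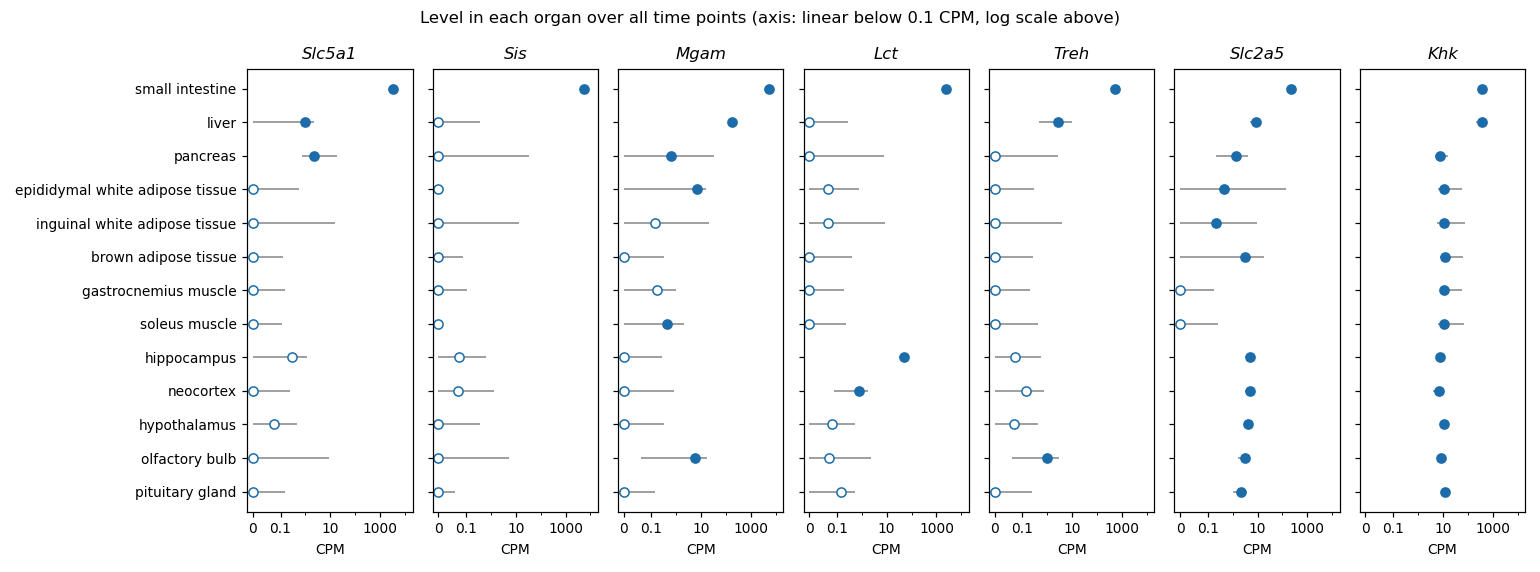
Level of each gene in 13 organs (CPM, horizontal axes, linear below 0.1 and logarithmic above), with the median (point) and range (line) over all libraries and filled points where the gene passed the filter on low counts. Khk in liver matches its level in small intestine, Lct stands out in hippocampus and Mgam in liver.

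Lct had 2447 ± 274 CPM in small intestine, against 49.96 ± 6.71 CPM in hippocampus and 0.82 ± 0.37 CPM in neocortex (SD, n = 84 each). It was called at 0 of 13 times by edgeR in hippocampus (unadjusted p under 0.05 at 1 time), with log2 fold changes from -0.040 to 0.23. Mgam had 5384 ± 833 CPM in small intestine, against 169 ± 11.7 CPM in liver, 7.36 ± 3.42 in epididymal fat and 5.81 ± 1.82 in olfactory bulb. It was lower at 6 of 15 times in epididymal fat, where 20.8% of tests over all genes and times gave lower, and at 3 of 13 in olfactory bulb (7.32%). Slc5a1 had 3269 ± 540 CPM in small intestine, against 2.43 ± 2.01 CPM in pancreas and 1.04 ± 0.49 CPM in liver, and in pancreas and liver it was called at 0 of 13 times by edgeR (unadjusted p under 0.05 at 1 in pancreas and 0 in liver).

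Khk had like levels in small intestine and in liver, a main organ of fructose breakdown, with means of 359.8 ± 32 CPM in small intestine and 368 ± 69.1 CPM in liver over 84 libraries each. In liver it was higher at 3 of 13 times, 8, 10 and 12 weeks, where 8.82% of tests over all genes and times gave higher. At 12 weeks liver had 453, 507 and 528 CPM and at 0 days 296, 355 and 393 CPM, with no overlap and a rise of 0.53 ± 0.10 (adjusted p = 1.8e-05), where 42% of 12592 genes were called. At 1 day liver had 293, 323 and 375 CPM, overlapping the 0-day livers. The 1-day change of Khk was more positive in small intestine than in liver by 0.48 ± 0.12 (interaction, adjusted p = 0.0028, with 10.8% of 14804 genes called). At 12 weeks the small intestine change was lower than that of liver by 0.29 ± 0.12 (adjusted p = 0.059, with 27.0% called), and by 0.36 (adjusted p = 0.029) without the least correlated library of each group.

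Mgam also differed between these organs. Its liver level was 171, 180.4 and 193 CPM at 1 day and 143, 162 and 182 CPM at 0 days, a rise of 0.16 ± 0.053 (adjusted p = 0.036) where 9.65% of genes were called. At 12 weeks it was 150, 160 and 177 CPM. The change in small intestine was below that in liver by 0.50 ± 0.10 at 1 day (adjusted p = 0.00022) and by 0.46 ± 0.10 at 12 weeks (adjusted p = 0.00018), a comparison added after the levels in both organs were seen.

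Treh was at a low level in liver and higher there at 12 of 13 times. It had 6.38, 6.72 and 9.86 CPM in liver at 12 weeks and 0.47, 1.19 and 1.38 CPM at 0 days, a rise of 2.81 ± 0.28 (adjusted p = 2.2e-13), with no overlap. In olfactory bulb Treh had 1.05 ± 0.43 CPM and was called at 0 of 13 times by edgeR (unadjusted p under 0.05 at 2).

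**Figure D5:**
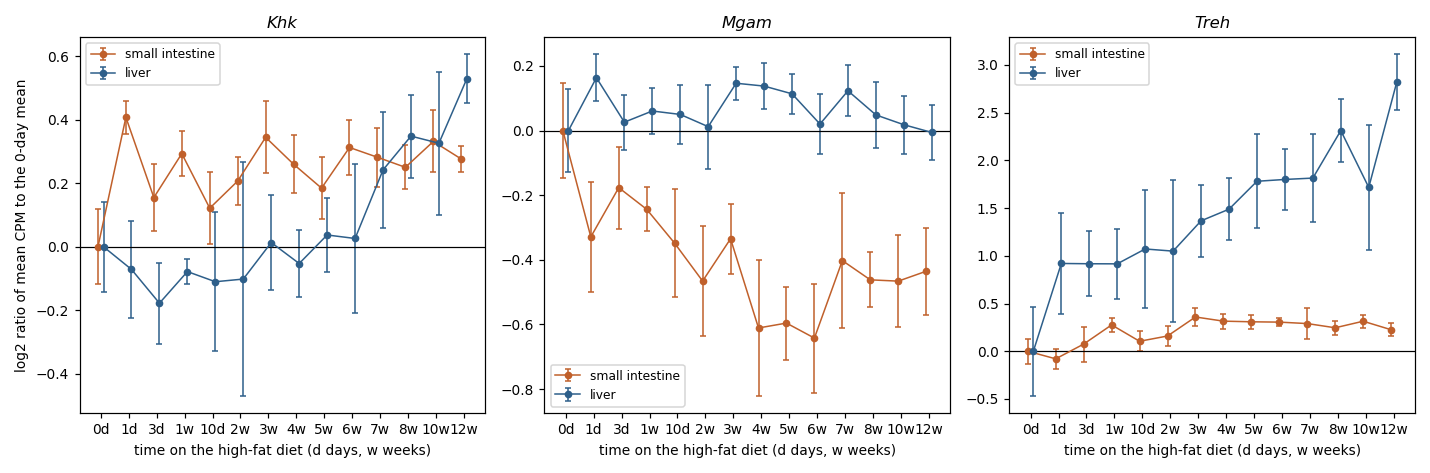
Log2 ratio of mean CPM to the 0-day mean in small intestine (orange) and liver (blue) for Khk, Mgam and Treh at each time point, with bars for the SD of 6 mice divided by their mean, on the log2 scale. Khk is above 0 in small intestine from 1 day, and in liver at 3 weeks and at each time from 5 weeks on. Mgam is below 0 in small intestine, and Treh in liver is highest at 12 weeks.

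Khk and Slc2a5 fell in white fat. In epididymal fat Khk was lower at 15 of 15 later times, with 8.13, 9.33 and 11.1 CPM at 12 weeks and 22.4, 35.5 and 60.0 CPM at 0 days. These groups did not overlap, and the log2 fold change was -1.98 ± 0.22 (adjusted p = 1.0e-12). In inguinal fat it was lower at 3 of 13 times, where 10.0% of tests over all genes and times gave lower, and at 12 weeks by 1.00 ± 0.35 (adjusted p = 0.016). Slc2a5 in inguinal fat was lower at 11 of 13 times, with 0, 0 and 0.31 CPM at 12 weeks and 3.25, 3.78 and 6.67 CPM at 0 days. In epididymal fat it was lower at 10 of 15 times and higher at 1 (24.4% of all tests), at 3 weeks, where 1 library had 137 CPM and the other 5 had 0.29 to 2.02 CPM. Slc2a5 was higher at 6 of 13 times in liver, with its highest fold change at 5 weeks (0.82 ± 0.14, adjusted p = 1.1e-05), and at 5 of 13 in olfactory bulb (7.34% of all tests). Over all libraries Slc2a5 had 226 ± 23.6 CPM in small intestine, against 8.78 ± 1.85 CPM in liver and 5.09 ± 0.87 CPM or less on average in each other organ. In brain regions and pituitary Khk was at 6.83 to 12.1 CPM on average and was called at 0 of 13 times in each by edgeR (unadjusted p under 0.05 also at 0).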

How the data were processed

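Gene expression was measured by poly(A) RNA-seq in 1104 libraries of 13 organs, of which 84 were small intestine, with 6 mice at each of 14 time points. The values are counts of reads per gene symbol, deposited by the authors as 1 table of 20646 symbols. The submitters' processing notes name GRCm38 (mm10), featureCounts 1.6.3, SAMtools 1.9, the aligner HISAT2 2.1.0, the trimmer Trimmomatic 0.38 and FastQC 0.11.7, but neither the gene annotation nor the strand setting of the counting.

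Counts were tested with edgeR 4.0.16 (filterByExpr, TMM scaling, quasi-likelihood F test, two-sided, R 4.3.3), fitted over all libraries of an organ with 1 coefficient per time point, and p-values were adjusted by Benjamini-Hochberg over all genes tested. Standard errors are the log2 fold change divided by the square root of F. Intervals of 95% use the standard error and the normal quantile. Levels are counts scaled to library size (CPM), computed here with TMM scaling within an organ, and log2 CPM used a prior count of 2. The changes in small intestine and liver were compared by an interaction term over both organs. Alternatives were RLE scaling, no filter, DESeq2 1.42.0, 2 time points alone, a replicate block, left-out libraries, covariates of marker and clock genes, and counts without pancreatic enzyme genes. The test was tried on simulated counts. Tables and figures used Python 3.11.15 with numpy 2.4.6, pandas 2.3.3, scipy 1.17.1 and matplotlib 3.10.9.

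The 7 genes, the gene lists and the tests were chosen with earlier results of these data known. In each list the genes named are the 2 with the smallest p-value in each direction at 1 day and at 12 weeks, among those called, and a few are given at both times. The genes most like each of the 7 are taken from the 3 with the highest r. Some genes that these rules name, and 1 promoter motif, are not reported here. Coordinates and exon lengths are from GENCODE M21, and promoter sequences from RefSeq GRCm38.p6, where 7 of the 7 genes matched.

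Over all organs the libraries held 7670532 to 27036098 counts, with a median of 13464321. No pair of small intestine libraries of a time point was alike within sampling noise (210 pairs, lowest chi-square per degree of freedom 3.23). The labels give separate samples without naming shared litters or days, so p-values measure the spread between these mice.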

Additional observations from a re-analysis of the deposited data

Results flagged for a closer look

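Of 114 groups of 6 libraries examined for 1 library far from the others, 6 had one, where chance gives about 1 in 20, or 5.7 groups. In small intestine at 3 days the fourth mouse had 3235 CPM of Lct, against 1924 to 2325 CPM in the other 5, and 597 CPM of Treh, against 434 to 468 CPM. At 6 weeks the sixth mouse had 5547 CPM of Mgam, against 4108 to 4421 CPM. At 8 weeks the fifth mouse had 305 CPM of Slc2a5, against 213 to 244 CPM. In inguinal fat 1 mouse at 12 weeks had 0.308 CPM of Slc2a5, against at most 0.080 CPM in the others, and 1 mouse at 0 days had 6.67 CPM, against 3.25 to 4.19 CPM.

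The change of a gene differed between small intestine and liver in 3 tests of an interaction term with edgeR. For Khk at 1 day the difference was 0.48 (adjusted p = 0.0028). For Mgam it was -0.50 at 1 day (adjusted p = 0.00022) and -0.46 at 12 weeks (adjusted p = 0.00018).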

How the results depend on the processing

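Under 11 alternatives, each with all 98 fold changes of the 7 genes (13 times against 0 days and 12 weeks against 1 day), 964 of 1078 values kept their direction and their side of the threshold, 27 lost their call and 36 gained one with the sign kept, and 51 changed sign. The enterocyte covariate gave 22 of these losses, 7 of the gains and 32 of the changed signs. Counted with the changed signs, 37 calls were lost and 41 gained, of which 32 and 12 were with the enterocyte covariate. With it 2678 genes were called at 10 days (5677 without it), 2361 at 2 weeks (5485), 3484 at 5 weeks (6019), 3079 at 6 weeks (5354), 3403 at 7 weeks (6012) and 3798 at 8 weeks (5801), and of the 7 genes 3 were called at 2, 4, 7, 8 and 10 weeks and 2 at 5 and 12 weeks, against 5 without it. Against 0 days signs turned at 10 times for Sis, 10 for Lct, 4 for Slc2a5, 3 for Slc5a1, 2 for Mgam and 1 for Treh, and Lct was from 0.057 to 0.41 over the 13 times. Of changes called without the covariate, and of those at 1 day and 12 weeks, signs turned for Sis (0.22 at 1 day, 0.039 at 10 days, 0.13 at 2 weeks, 0.047 at 5, 0.096 at 6, 0.16 at 7 and 0.023 at 10 weeks), Slc5a1 (0.013 at 2, 0.026 at 3 and 0.071 at 7 weeks), Mgam (0.028 at 10 days), Lct (0.099 at 1 day, 0.057 at 12 weeks) and Treh (0.071 at 1 day). Between 12 weeks and 1 day they turned for Slc5a1 (0.030) and Slc2a5 (0.012), and with the region covariate also (0.0052 and 0.0057). With the clock covariate Sis was 0.039 at 1 day, and 5 of the 7 genes were called at 10 days, as when each time point lost its least correlated library (5), against 3. That removal also gave -0.36 for Khk in small intestine minus liver at 12 weeks. Fitted alone, 1 day against 0 days gave 2181 genes (3378) and 3 days 1706 (3244), with 1 of the 7 genes (2). Leaving out 1 library at a time gave Sis at 1 day from -0.074 to 0.026 (-0.078 when each time point lost 1), and 5 or 6 of the 7 genes called at 12 weeks. The causes were not tested.

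Small intestine libraries with the same replicate number were compared across time points only at 1 day and 12 weeks, each with 0 days. Between 1 day and 0 days 0 of 6 same-numbered pairs correlated over 0.1, and between 12 weeks and 0 days 1 of 6. The levels of Slc5a1 and Mgam and the clock score nonetheless went with replicate number, as given above. Between small intestine and liver, same-numbered pairs had 0.042 to 0.095 at 0 days, 0.018 to 0.0996 at 1 day and 0.018 to 0.076 at 12 weeks. Other pairs had medians of -0.014, -0.014 and -0.0068. The interaction test took these libraries as independent, and whether both organs came from the same mice was not tested. With a replicate block it gave 0.48 for Khk at 1 day (adjusted p = 0.0027) and -0.29 at 12 weeks (0.059). With a replicate block Mgam was lower at 13 of 13 times and Sis at 10, and 3517 genes were called at 1 day. No setting moved the median log2 fold change of all genes by over 0.1. At these depths the least precise of the 7 genes had a standard error of 0.10.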
